A study of Danio rerio with 6 samples.

Results

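The genes described here are 34 pigment cell genes, chosen by symbol and sorted by the type of chromatophore (pigment-bearing cell) in which each is best known. A row with the symbol was found in the deposited table for 33 of the 34, out of 32057 genes in all. The exception was rab38a, a Rab GTPase gene of melanosome traffic, which is not analysed here. The 33 comprise 15 melanophore genes, 6 iridophore genes, 7 xanthophore genes, 3 genes of purine synthesis and 2 genes given no single type. The measurements come from poly(A) RNA of zebrafish heads, dissected at 2 days post-fertilization (dpf) and pooled 150 to a library. In 3 libraries the embryos had been exposed to 6PPD, an antioxidant of tire rubber, at 500 µg/L, starting 10 hours post-fertilization (hpf) and lasting to dissection. In the other 3 the embryos had received the solvent DMSO. Every embryo of either group was also kept in 0.003% 1-phenyl-2-thiourea (PTU) from 24 hpf, a tyrosinase inhibitor that blocks melanin formation, so pigment genes were read here in animals whose melanin synthesis was chemically blocked. The labels name the tissue as brain, but whole heads also carry the eye and the skin, and the photoreceptor gene crx (193 FPKM in DMSO) and epidermal markers were abundant.

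Zebrafish carry black melanophores, silvery iridophores and yellow xanthophores, which arise from the neural crest. Melanophores make melanin from tyrosine inside melanosomes, iridophores stack guanine crystals made by the purine pathway, and xanthophores make yellow pteridines from GTP and store carotenoids. The retinal pigment epithelium (RPE) of the eye also makes melanin, with many of the same genes, but it comes from the neural tube. In bulk heads the RNA of melanophores and RPE cannot be told apart for shared genes, and neither can fewer cells of a type and less RNA per cell.

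Levels are in FPKM (fragments scaled by gene length and by the mapped fragments of the library), so genes can be compared per length. The depth behind them is unknown, because the table holds no counts and only 23.4% to 26.0% of low values were whole multiples of the commonest step within 0.1 step, against 20% for a step of any size. Differences are log2 fold changes of FPKM + 1 from limma, fitted to the 15320 genes whose mean reached 1 FPKM, and a gene was called at an adjusted p under 0.05. In the whole table, limma called 522 genes (3.41% of those tested), 346 higher (2.26%) and 176 lower (1.15%) in 6PPD. Higher genes made up 66.3% of these calls, against 74.2% on the TPM scale, which has a common sum in each library, 45.7% after median-ratio scaling and 52.9% after quantile normalization. The filter of 1 and the 1 added before the log were kept on the TPM scale, whose values are larger. There 17638 genes were tested, so that fit differed in more than the common sum. On the first principal component (43.5% of the variance) DMSO replicate 3, at -4.70, lay between the other DMSO libraries, at -20.6 and -22.8, and the 6PPD libraries, at 15.3 to 17.0. Without DMSO replicate 3, 1130 genes were called, and without any other single library between 168 and 456. The labels call the replicates biological without saying whether the pools came from separate clutches, so p-values measure the spread between these pools.

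After 6PPD, 12 of 15 melanophore genes measured lower in the head, 2 of them past the test. The DMSO and 6PPD groups overlapped for mitfa, the master regulator of the lineage, as they did for tyr, pmela, oca2, slc24a5, kita, mc1r and trpm1b. Of the 32 pigment cell genes tested, 3 fell and 0 rose (limma, adjusted p under 0.05), where 1.15% of all genes tested fell and 2.26% rose. At an unadjusted p under 0.05, 9 were lower and 1 higher, where 6.93% and 13.4% of all genes tested were. The 3 called were the melanosomal transporter gene slc45a2, the melanosomal receptor gene gpr143 and the purine nucleoside phosphorylase gene pnp4a, the last an iridophore marker. The log2 fold change was negative in 24 of the 32, and in 38.5% of all genes tested. Its median was -0.30 over the 15 melanophore genes, 0.01 over the 6 iridophore genes and -0.34 over the 6 xanthophore genes tested, beside 0.06 over all genes tested. Over 7 genes, as csf1ra then passed the filter, the xanthophore median was -0.15 without 6PPD replicate 2 and -0.18 on the TPM scale. On that scale the 6 genes of the full fit stood at -0.59 (gch2), -0.57 (xdh), -0.53 (aox5), -0.18 (pax7b), 0.06 (pax7a) and 0.54 (pts). In 7 of the 15 melanophore genes every 6PPD library lay below every DMSO library, as it did in 9.18% of all genes tested. The same held for 1 of 6 iridophore genes and 1 of 6 xanthophore genes. It was not particular to pigment cell genes. Of the RPE markers without tyrp1b, 5 of 11 tested were separate in this way, as were 7 of 10 photoreceptor markers. The counts were 6 of 18 for epidermis, 1 of 6 for muscle and 0 of 6 for oligodendrocyte and ear markers. Differences between the types were not tested.

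**Figure D1:**
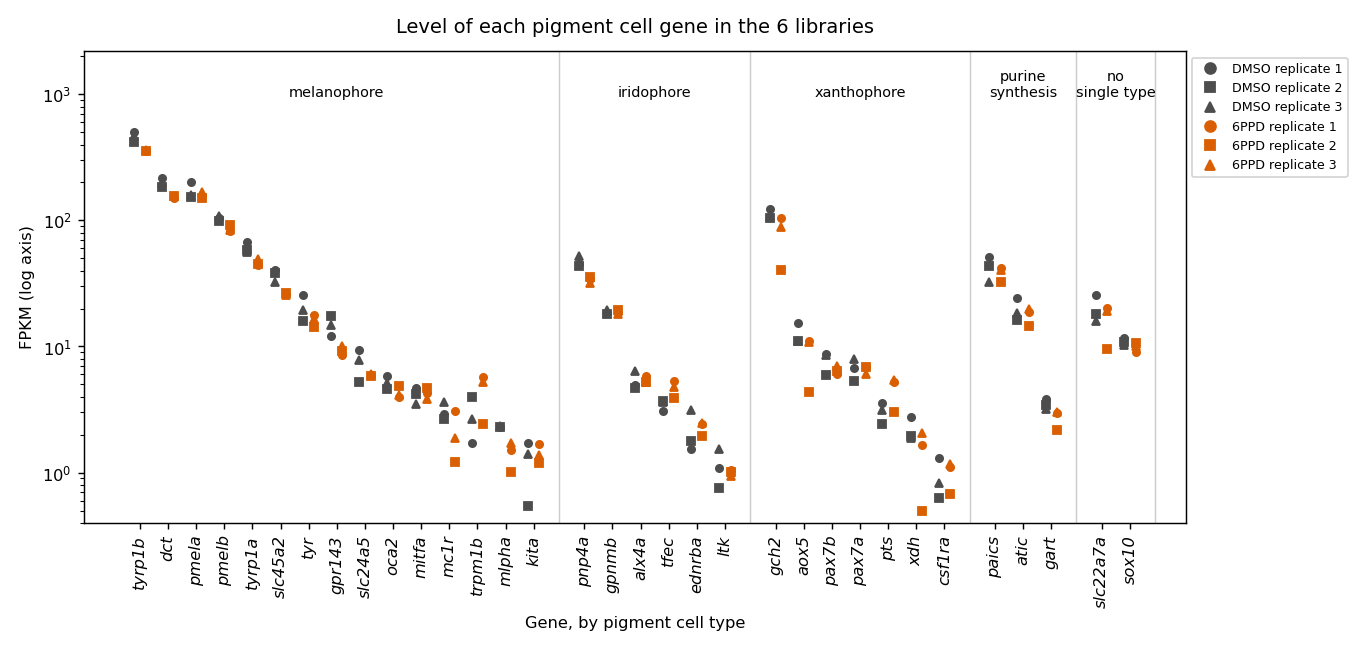
FPKM (log axis) of the 33 genes in each library, ordered within a type by the DMSO mean, with DMSO in grey, 6PPD in orange and a symbol for each replicate. Melanophore genes span the widest range, from tyrp1b at a DMSO mean of 462 FPKM to kita at 1.22 FPKM. 6PPD replicate 2 is the lowest point for gch2, aox5, xdh and slc22a7a, among others.

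Melanin synthesis begins with tyrosinase (tyr), which oxidises tyrosine, and continues through dopachrome tautomerase (dct) and the tyrosinase-related proteins (tyrp1a and tyrp1b). The gene tyrp1b (ENSDARG00000056151, chromosome 1, 19332837 to 19346048 on GRCz11, the build of all positions here) was the highest of all the pigment cell genes, ranking 164 of the table in DMSO. Its level was 502, 415 and 467 FPKM in DMSO replicates 1 to 3 and 352, 355 and 364 FPKM in 6PPD replicates 1 to 3. The groups did not overlap, and the 6PPD libraries were close to each other. Its log2 fold change was -0.37 ± 0.10 (SE), with an adjusted p = 0.0758 in limma, so it missed the threshold. The gene dct (ENSDARG00000006008, chromosome 9, 53327332 to 53352682) measured 218, 185 and 196 FPKM in DMSO and 149, 156 and 158 FPKM in 6PPD, again without overlap (log2 fold change -0.37 ± 0.09, limma adjusted p = 0.0529). The gene tyrp1a measured 67.3, 58.5 and 56.3 FPKM in DMSO and 44.0, 45.4 and 49.7 FPKM in 6PPD (-0.38 ± 0.09, limma adjusted p = 0.056). These 3 genes stood at 77.3%, 77.3% and 76.4% of their DMSO means, none of them past the threshold. Without DMSO replicate 3, dct (adjusted p = 0.042) and tyrp1a (adjusted p = 0.0351) passed it and tyrp1b (adjusted p = 0.0548) did not. Leaving out any other single library gave an adjusted p of 0.0865 to 0.211 for dct, 0.105 to 0.212 for tyrp1a and 0.0983 to 0.254 for tyrp1b, so none passed.

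The ratio of tyrp1b to dct, chosen after the values were seen, was 2.25 to 2.38 in the DMSO libraries and 2.27 to 2.36 in the 6PPD libraries. The rate-limiting gene tyr itself varied more, at 25.6, 15.9 and 19.5 FPKM in DMSO and 17.8, 14.2 and 16.5 FPKM in 6PPD, with overlapping groups (-0.30 ± 0.16, limma adjusted p = 0.321). DMSO replicate 1 was the highest library for tyr, as it was for tyrp1b, dct and tyrp1a.

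Of 3 transporter genes of the melanosome membrane, 1 was called. The gene slc45a2 (ENSDARG00000002593, chromosome 21, 19445942 to 19484289), whose loss gives albino fish and oculocutaneous albinism in humans, fell from 40.6, 38.2 and 32.3 FPKM in DMSO to 26.1, 26.4 and 25.6 FPKM in 6PPD. The groups were separate, and the 6PPD libraries differed little from each other. Its log2 fold change was -0.48 ± 0.09, with a limma adjusted p = 0.0262. That p was 0.0564, 0.104 and 0.0138 with DMSO replicates 1, 2 and 3 left out in turn, and 0.101, 0.0818 and 0.105 with 6PPD replicates 1, 2 and 3 left out. The calcium exchanger gene slc24a5, altered in golden zebrafish, measured 9.33, 5.22 and 7.82 FPKM in DMSO and 5.92, 5.82 and 6.07 FPKM in 6PPD (-0.25 ± 0.17, limma adjusted p = 0.425). Here DMSO replicate 2 lay below the 6PPD libraries. The transporter gene oca2, which acts in melanosome pH, measured 5.88, 4.58 and 5.12 FPKM in DMSO and 3.99, 4.82 and 4.15 FPKM in 6PPD, with overlap (-0.22 ± 0.12, limma adjusted p = 0.358).

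Among genes of melanosome structure and traffic, gpr143 (ENSDARG00000034572, chromosome 9, 55056310 to 55090829) showed the largest fall of a called pigment gene. It encodes a receptor of the melanosome membrane, altered in human ocular albinism. Its level fell from 12.1, 17.6 and 14.7 FPKM in DMSO to 8.49, 9.25 and 10.1 FPKM in 6PPD, 62.7% of the DMSO mean (log2 fold change -0.61 ± 0.13, limma adjusted p = 0.0414). Every 6PPD library was below the DMSO libraries, but DMSO replicate 1 was the lowest control here, unlike in the enzyme genes. Leaving out DMSO replicates 1, 2 and 3 in turn gave an adjusted p of 0.0164, 0.127 and 0.0528, and leaving out 6PPD replicates 1, 2 and 3 gave 0.157, 0.116 and 0.0941. On the TPM scale it was 0.0706.

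The gene mlpha encodes melanophilin, which links melanosomes to the myosin motor. It was a low gene at 2.32, 2.30 and 2.34 FPKM in DMSO and 1.51, 1.02 and 1.70 FPKM in 6PPD (-0.47 ± 0.14, limma adjusted p = 0.113). The groups were separate, and the DMSO values were nearly equal. Neither gene of the amyloid matrix of the melanosome was called, and how much of their RNA came from the RPE was not examined. The gene pmelb measured 105, 99.7 and 109 FPKM in DMSO and 82.1, 91.6 and 83.2 FPKM in 6PPD without overlap (-0.29 ± 0.08, limma adjusted p = 0.0869). Its paralog pmela measured 202, 155 and 158 FPKM in DMSO and 156, 151 and 167 FPKM in 6PPD, with overlap (-0.11 ± 0.11, limma adjusted p = 0.611). For paralog pairs such as pmela and pmelb or tyrp1a and tyrp1b, fragments may be divided between similar copies, and their similarity was not examined.

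The regulators of the melanophore lineage showed no fall that passed the test. The gene mitfa encodes the transcription factor that specifies melanophores and switches on the enzyme genes. It measured 4.68, 4.20 and 3.52 FPKM in DMSO and 4.28, 4.67 and 3.81 FPKM in 6PPD, fully overlapping (log2 fold change 0.04 ± 0.13, 95% interval -0.26 to 0.33, limma adjusted p = 0.895). Its sign turned with median-ratio scaling (-0.03) and quantile normalization (-0.04). The ratio of dct to mitfa, also chosen after the values were seen, was 44.0 to 55.8 in DMSO libraries and 33.5 to 41.4 in 6PPD libraries. The receptor gene kita, needed for melanophore survival and migration, measured 1.73, 0.544 and 1.40 FPKM in DMSO and 1.69, 1.20 and 1.37 FPKM in 6PPD (0.16 ± 0.21, limma adjusted p = 0.702). The low value in DMSO replicate 2 sets the wide spread of its controls.

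The melanocortin receptor gene mc1r, whose product sets melanin output in many vertebrates, measured 2.90, 2.66 and 3.61 FPKM in DMSO and 3.09, 1.21 and 1.89 FPKM in 6PPD (-0.45 ± 0.21, limma adjusted p = 0.273). Here 6PPD replicate 1 reached the control range. The channel gene trpm1b, known from melanophores and from retinal ON bipolar cells, had a positive log2 fold change, at 1.73, 3.95 and 2.67 FPKM in DMSO and 5.73, 2.41 and 5.21 FPKM in 6PPD (0.51 ± 0.28, limma adjusted p = 0.335). Again 6PPD replicate 2 stood apart from replicates 1 and 3.

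**Figure D2:**
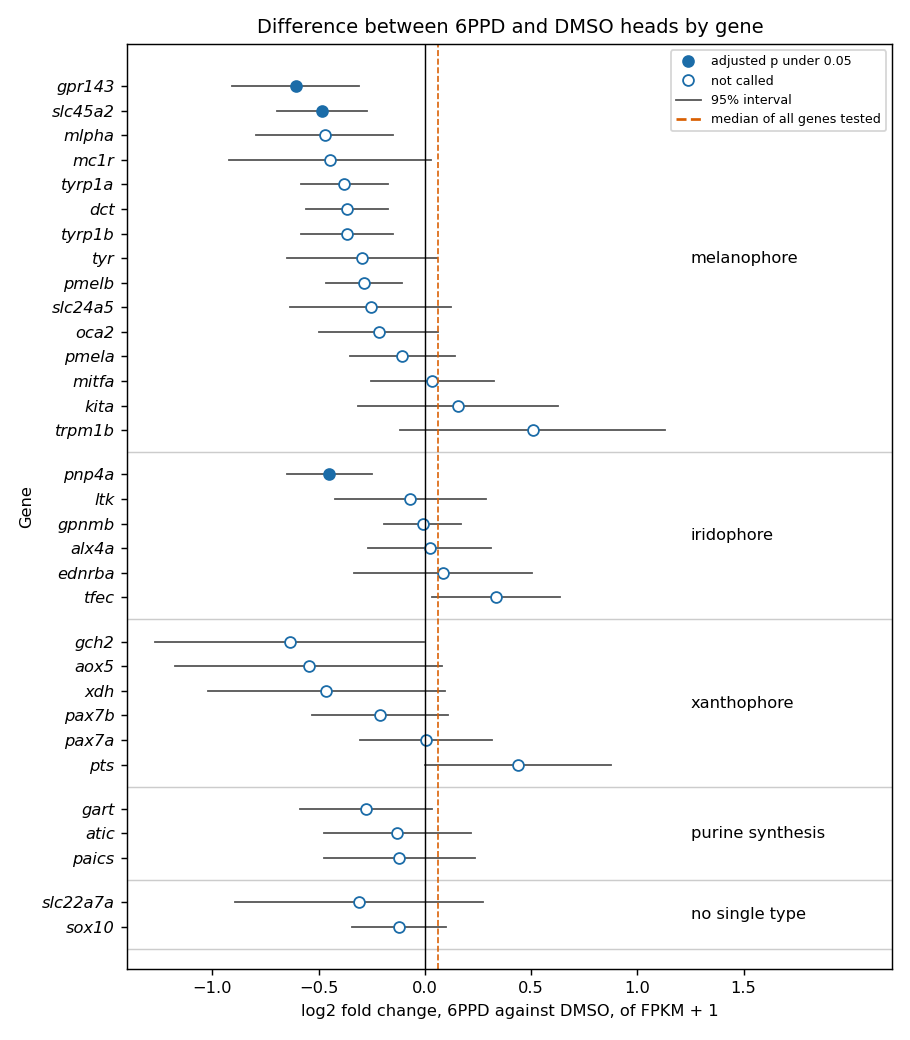
Log2 fold change (6PPD against DMSO, of FPKM + 1) of the 32 genes tested, by type, with the 95% interval of the moderated fit; filled points are the called genes and the dashed line is the median of all genes tested (0.06). The called genes are gpr143 (-0.61), slc45a2 (-0.48) and pnp4a (-0.45), while mitfa (0.04), gpnmb (-0.01) and pax7a (0.01) sit near 0.

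Iridophore genes split, with the purine enzyme lower and the remaining genes not called. The gene pnp4a (ENSDARG00000057575, chromosome 11, 24251141 to 24299538) encodes a purine nucleoside phosphorylase that serves guanine production and is the usual early marker of iridophores. It fell from 45.2, 43.7 and 51.9 FPKM in DMSO to 34.4, 35.8 and 32.0 FPKM in 6PPD, 72.6% of the DMSO mean, without overlap (log2 fold change -0.45 ± 0.09, limma adjusted p = 0.0286). Here DMSO replicate 3 was the highest control. That p became 0.0446, 0.0617 and 0.0361 when DMSO replicates 1, 2 and 3 were left out in turn, and 0.105, 0.0666 and 0.121 when 6PPD replicates 1, 2 and 3 were. It was 0.0722 on the TPM scale.

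The receptor tyrosine kinase gene ltk, which is required for iridophores to form, measured 1.08, 0.760 and 1.53 FPKM in DMSO and 1.05, 1.00 and 0.947 FPKM in 6PPD (-0.07 ± 0.16, limma adjusted p = 0.833). At this level the DMSO libraries enclosed the 6PPD ones. The melanosomal glycoprotein gene gpnmb, found in iridophores, melanophores and macrophages, measured 18.4, 18.0 and 19.6 FPKM in DMSO and 18.3, 19.4 and 18.0 FPKM in 6PPD (-0.01 ± 0.08, 95% interval -0.19 to 0.17, limma adjusted p = 0.955). Its interval is the narrowest of any iridophore gene, and the ratio of pnp4a to gpnmb, chosen after the values were seen, was 2.42 to 2.65 in DMSO and 1.78 to 1.88 in 6PPD.

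The transcription factor gene tfec, of the MITF family and expressed in pigment progenitors, iridophores and the RPE, measured 3.08, 3.73 and 3.63 FPKM in DMSO and 5.31, 3.87 and 4.80 FPKM in 6PPD (0.33 ± 0.13, limma adjusted p = 0.205). It was the only one of the 32 tested pigment genes whose 6PPD libraries all lay above the DMSO libraries, as did 17.1% of all genes tested. The homeobox gene alx4a, used in iridophores and in the facial mesenchyme, had a log2 fold change of 0.02 ± 0.13. The endothelin receptor gene ednrba, used by iridophores and melanophores, had one of 0.09 ± 0.19. Their limma adjusted p were 0.932 and 0.824, and DMSO replicate 3 was the highest library for either gene.

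The xanthophore genes gch2, aox5 and xdh were lowest in 1 of the 6PPD libraries, and no xanthophore gene was called. The gene gch2 (ENSDARG00000099101, chromosome 12, 25085751 to 25092570) encodes the GTP cyclohydrolase that opens pteridine synthesis in xanthophores. It measured 124, 104 and 108 FPKM in DMSO and 104, 40.1 and 87.9 FPKM in 6PPD replicates 1 to 3. The groups did not overlap, by a margin of under 1 FPKM between 6PPD replicate 1 and DMSO replicate 2, while 6PPD replicate 2 was far below the rest. The log2 fold change was -0.64 ± 0.28 (95% interval -1.27 to -0.00, limma adjusted p = 0.244), and -0.23 without 6PPD replicate 2 (adjusted p = 0.366).

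The aldehyde oxidase gene aox5, a xanthophore marker, measured 15.4, 11.1 and 11.0 FPKM in DMSO and 11.1, 4.37 and 10.8 FPKM in 6PPD (-0.55 ± 0.28, limma adjusted p = 0.304; -0.16 without 6PPD replicate 2, adjusted p = 0.62). The xanthine dehydrogenase gene xdh, which acts late in yellow pteridine synthesis, measured 2.76, 1.94 and 1.89 FPKM in DMSO and 1.66, 0.499 and 2.05 FPKM in 6PPD (-0.46 ± 0.25, limma adjusted p = 0.326; -0.15 without 6PPD replicate 2, adjusted p = 0.691). In 6PPD replicate 2 these 3 genes stood at 41.9%, 39.9% and 26.8% of the mean of 6PPD replicates 1 and 3. In the latter libraries their means were 85.5%, 87.5% and 84.6% of the DMSO means.

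Both gch2 and aox5 had their lowest value in 6PPD replicate 2. Their ratio, chosen after the values were seen, was 8.04 to 9.77 in DMSO and 8.12 to 9.34 in 6PPD, and 9.17 in 6PPD replicate 2 itself. Other ratios of pigment genes were also computed and are not given here. The melanophore gene dct was not low in that library (156 FPKM, between 6PPD replicates 1 and 3), and the ratio of dct to gch2 was 3.89 there against 1.44 to 1.82 in the other 5 libraries. Some melanophore genes did have their lowest value there, namely tyr (14.2 FPKM), pmela (151 FPKM), mlpha (1.02 FPKM) and mc1r (1.21 FPKM), and the rest did not. For mc1r that value was 48.4% of the mean of 6PPD replicates 1 and 3. Among all genes tested, 0.379% lay under 50% of both other 6PPD libraries in 6PPD replicate 2, and 5 of 32 pigment genes did, namely gch2, aox5, xdh, slc22a7a and trpm1b. In the other libraries, by the same comparison within the group, the pigment genes numbered 0, apart from kita in DMSO replicate 2. This comparison was added after the values were seen and carries no test.

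**Figure D3:**
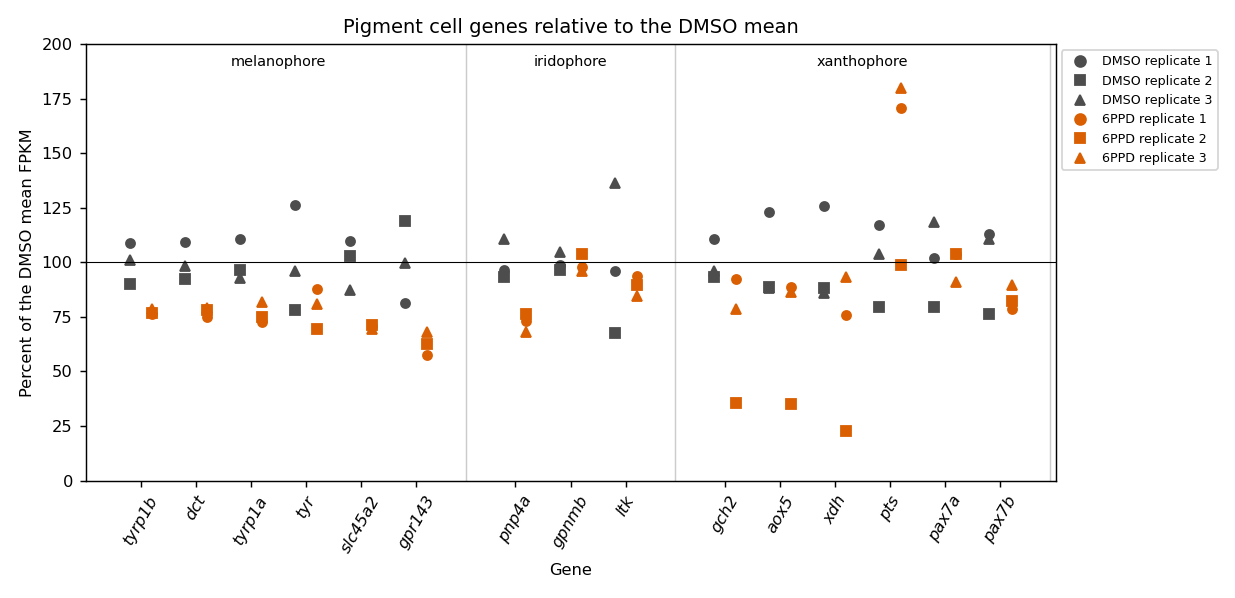
Level in each library as a percent of the DMSO mean FPKM, for 6 melanophore, 3 iridophore and 6 xanthophore genes. The melanin enzyme genes tyrp1b, dct and tyrp1a have close 6PPD points in every replicate, whereas gch2, aox5 and xdh have 6PPD replicate 2 far below replicates 1 and 3.

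Of the other xanthophore genes, pts and csf1ra were also lower in 6PPD replicate 2 than in 6PPD replicates 1 and 3, and pax7a and pax7b were not the lowest there. The gene pts, whose enzyme follows GTP cyclohydrolase, measured 3.56, 2.42 and 3.15 FPKM in DMSO and 5.19, 3.01 and 5.47 FPKM in 6PPD (0.44 ± 0.20, limma adjusted p = 0.246). Here 6PPD replicates 1 and 3 were above the controls and replicate 2 within them. The paired-box genes pax7a and pax7b specify xanthophores and are also active in the dorsal midbrain and in muscle precursors. Their log2 fold changes were 0.01 ± 0.14 and -0.21 ± 0.14 (limma adjusted p = 0.983 and 0.429). In 6PPD replicate 2 they measured 6.91 and 6.36 FPKM, inside the range of the controls (5.29 to 7.89 and 5.93 to 8.75 FPKM). The receptor gene csf1ra, needed by xanthophores and macrophages, lay under the filter and was not tested, at 1.302, 0.630 and 0.832 FPKM in DMSO and 1.101, 0.676 and 1.18 FPKM in 6PPD. Macrophage markers were low too, such as mpeg1.1, with means of 2.29 FPKM (DMSO) and 2.48 FPKM (6PPD).

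The purine synthesis genes paics, gart and atic feed guanine and pteridine production and also serve every dividing cell. The gene paics measured 51.1, 43.2 and 32.4 FPKM in DMSO and 42.0, 32.3 and 40.8 FPKM in 6PPD (-0.12 ± 0.16, limma adjusted p = 0.694). The values of gart were 3.84, 3.42 and 3.19 FPKM in DMSO and 2.97, 2.17 and 3.02 FPKM in 6PPD, separate between groups (-0.28 ± 0.14, limma adjusted p = 0.293). The difference for atic was -0.13 ± 0.15 (limma adjusted p = 0.665). In each of these 3 genes 6PPD replicate 2 was the lowest library.

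The gene sox10, which marks neural crest, its pigment progenitors, glia and the ear, measured 11.7, 10.8 and 10.3 FPKM in DMSO and 9.08, 10.7 and 10.1 FPKM in 6PPD (-0.12 ± 0.10, limma adjusted p = 0.517). The organic anion transporter gene slc22a7a measured 25.7, 18.0 and 15.8 FPKM in DMSO and 20.2, 9.49 and 19.2 FPKM in 6PPD (-0.31 ± 0.26, limma adjusted p = 0.527). Its 6PPD replicate 2 value was 48.1% of the mean of replicates 1 and 3, and without that library its log2 fold change was 0.02.

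The wider lists of the pigment pathways are read beside the 3.41% of all genes tested that were called. At an unadjusted p under 0.05 in limma, 6.93% of all genes tested were lower and 13.4% higher. Of 31 other genes of melanosome formation and transport tested, 0 were called by limma (2 lower and 1 higher at an unadjusted p under 0.05), with a median log2 fold change of -0.03. The tetraspanin gene tspan36 had the smallest p (-0.22, limma adjusted p = 0.118), followed by the vesicle tethering gene vps16 (-0.21, limma adjusted p = 0.202). Of 9 other tetrahydrobiopterin and pteridine genes, 1 rose, the dihydrofolate reductase gene dhfr, which also supplies thymidine synthesis in dividing cells, from 14.4, 14.8 and 12.2 FPKM to 18.4, 18.4 and 19.3 FPKM (0.42 ± 0.09, limma adjusted p = 0.044; list median 0.12). At an unadjusted p under 0.05, 0 of the 9 were lower and 1 higher. Every 6PPD library lay above every DMSO library in 2 of the 9, and below in 0, beside 17.1% and 9.18% of all genes tested. The gene sprb of this list lay under the filter and was not tested. It measured 1.01, 1.06 and 1.87 FPKM in DMSO and 0.828, 0.369 and 0.519 FPKM in 6PPD, without overlap.

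Among 22 other genes of purine synthesis and salvage, 1 fell, and it was a relative of pnp4a. At an unadjusted p under 0.05, 6 of the 22 were lower and 0 higher, beside 6.93% and 13.4% of all genes tested. The purine nucleoside phosphorylase gene pnp5a fell from 51.5, 31.3 and 37.6 FPKM in DMSO to 12.5, 8.96 and 11.5 FPKM in 6PPD (log2 fold change -1.76 ± 0.17, limma adjusted p = 0.00158; list median -0.08). The groups were far apart, and the fall exceeded that of any of the 32 pigment genes tested. Of its relatives, pnp5b stood at -0.49 on the log2 scale (limma adjusted p = 0.105), pnp6 was at 0.23 (limma adjusted p = 0.45), and pnp4b was not tested, at or under 0.39 FPKM in each library. Of 4 tested genes of carotenoid handling, 0 were called by limma and 1 was lower at an unadjusted p under 0.05 (median -0.29). That gene was plin6, of the carotenoid droplets of xanthophores, at 6.47, 4.91 and 5.98 FPKM in DMSO and 3.04, 0.953 and 3.37 FPKM in 6PPD (-1.05 ± 0.27, limma adjusted p = 0.0714). Its groups were separate, and as with gch2 its lowest value was in 6PPD replicate 2. The carotenoid receptor gene scarb1 stood at -0.37 on the log2 scale (limma adjusted p = 0.326), with 1.43 FPKM in 6PPD replicate 2 and 2.74 to 3.52 FPKM in the other libraries.

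Of 13 ligands and hormones that act on pigment cells, 0 were called by limma (1 lower and 1 higher at an unadjusted p under 0.05; median 0.05). The melanin-concentrating hormone-like gene pmchl (-0.50, limma adjusted p = 0.0951) and the Ltk ligand gene alkal2a (0.38, limma adjusted p = 0.177) had the smallest p. Of 15 further lineage receptors and regulators, 1 fell, the AP-2 transcription factor gene tfap2c, active in neural crest and epidermis, from 22.7, 24.1 and 24.9 FPKM to 15.4, 14.9 and 18.5 FPKM (-0.53 ± 0.10, limma adjusted p = 0.0217; list median -0.07). At an unadjusted p under 0.05, 3 of these 15 were lower and 2 higher. The shares over all genes tested, for these and the ligands, were 6.93% lower and 13.4% higher. The tfap2c relative tfap2e, which acts with tfap2a in melanophores, measured 25.9, 27.7 and 23.3 FPKM in DMSO and 18.3, 20.8 and 18.1 FPKM in 6PPD (-0.41 ± 0.10, limma adjusted p = 0.0509).

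Some markers of the eye and the skin fell in 6PPD heads, where 1.15% of all genes tested fell at the adjusted threshold. At an unadjusted p under 0.05, 5 RPE markers were lower and 1 higher, 6 photoreceptor markers were lower and 1 higher, and 10 epidermis markers were lower and 1 higher, where 6.93% and 13.4% of all genes tested were. Of 12 RPE markers tested, 1 passed the adjusted threshold, the retinoid isomerase gene rpe65a, which fell from 25.6, 26.6 and 35.8 FPKM in DMSO to 15.8, 17.9 and 15.5 FPKM in 6PPD (-0.79 ± 0.13, limma adjusted p = 0.0127). Of the 12, 11 had a negative log2 fold change (median -0.17). Since the melanophore gene tyrp1b is also in that list, the RPE markers were also read without it. Of the 11 then tested, 10 had a negative log2 fold change (median -0.17), with 4 lower and 1 higher at an unadjusted p under 0.05. Their summed level was 269 to 305 FPKM in DMSO and 244 to 251 FPKM in 6PPD. The melanophore genes summed to 1008 to 1201 FPKM in DMSO and 863 to 898 FPKM in 6PPD. Without tyrp1b, the highest of them, they summed to 593 to 699 FPKM in DMSO and 510 to 534 FPKM in 6PPD. The gene rpe65a was a small part of the RPE sum. That list also holds otx2a, otx2b, bhlhe40 and cx43, whose expression outside the RPE was not examined. The marker ttr was at 0 in 4 libraries, and its role in fish RPE is not certain. Of 10 photoreceptor markers tested, 4 fell, namely rho, arr3a, opn1sw1 and gnat1 (median over the 10, -0.68). Their list summed to 291 to 422 FPKM in DMSO and 249 to 285 FPKM in 6PPD. On average most of the DMSO sum was crx, which was not among the 4. Of 18 epidermis markers, 1 fell, agr1 (-0.93), and 17 had a negative log2 fold change (median -0.39), with sums of 6497 to 11418 FPKM in DMSO and 5701 to 7189 FPKM in 6PPD, which overlap. The part of these markers in the lower melanophore levels was not tested.

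**Figure D4:**
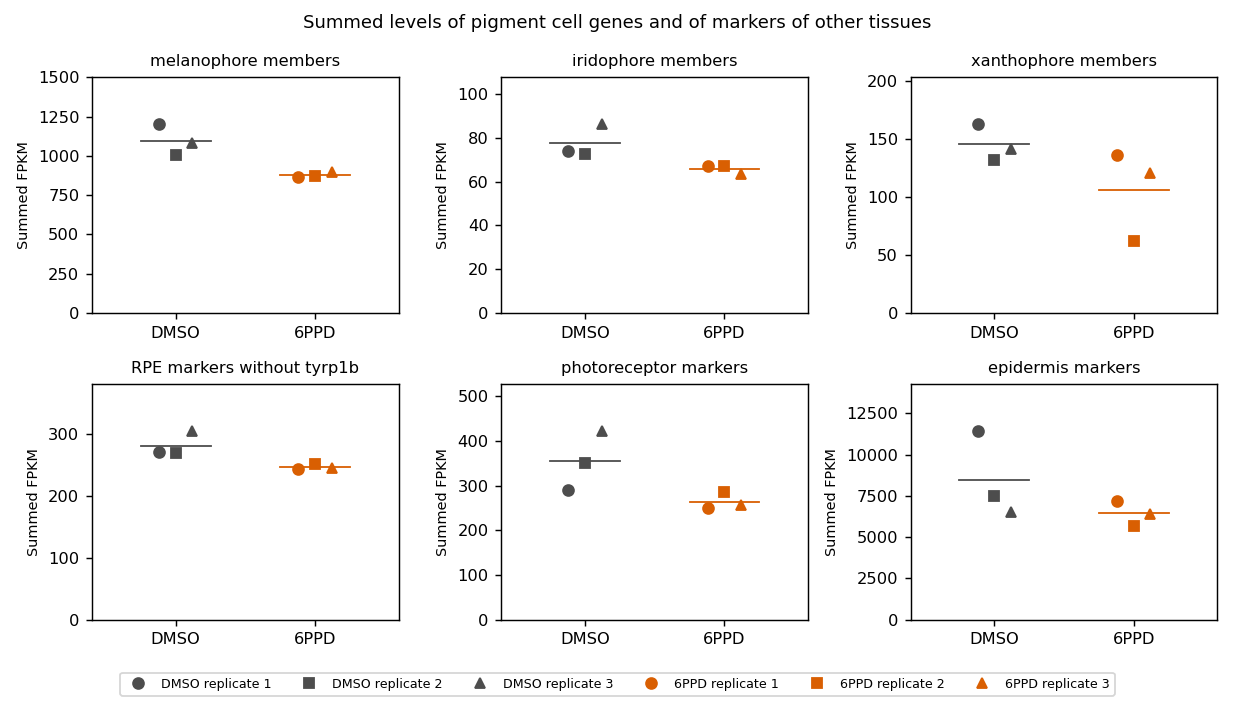
Summed FPKM in each library for the melanophore, iridophore and xanthophore genes and for markers of RPE (without tyrp1b), photoreceptors and epidermis; lines are group means and axes start at 0. The melanophore sums, which include tyrp1b, are 1008 to 1201 FPKM in DMSO and 863 to 898 FPKM in 6PPD. The xanthophore sum of 6PPD replicate 2, 61.9 FPKM, is the lowest of its panel.

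Among other tissues, 2 of 7 tested genes in the macrophage list fell, apoeb (-0.40) and lyz (-0.82), where 1.15% of all genes tested fell. Neither is read here as specific to macrophages. No other passed an unadjusted p under 0.05, and 2 of the 7 had a positive log2 fold change. Over all genes tested, 6.93% were lower and 13.4% higher at that unadjusted threshold. The sums were 83.8 to 102 FPKM in DMSO and 67.6 to 72.9 FPKM in 6PPD, mostly apoeb, which glia and skin also express. Without apoeb the sums overlapped, at 26.9 to 37.0 FPKM in DMSO and 24.2 to 29.8 FPKM in 6PPD. None of 6 oligodendrocyte and ear markers was called by limma (0 lower and 2 higher at an unadjusted p under 0.05; median -0.01), with sums of 145 to 158 FPKM in DMSO and 158 to 160 FPKM in 6PPD. None of 6 muscle markers was called either (1 lower and 0 higher at an unadjusted p under 0.05; median -0.08), with sums of 126 to 137 FPKM in DMSO and 109 to 137 FPKM in 6PPD.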

How the data were processed

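The authors deposited one table of FPKM for 6 libraries, 3 per group, computed by them. The tools fastp, HISAT2, featureCounts and StringTie and the build GRCz11 appear in the submitters' processing notes, with no versions, roles or order. Per the labels' protocols the libraries were stranded by dUTP. The use of strand in counting, and the depth, are not stated in the labels or the file header.

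Samples were grouped by the treatment in their labels. The 15320 genes whose mean reached 1 FPKM were tested on log2(FPKM + 1), which understates changes of low genes, with limma 3.58.1 in R 4.3.3 (intensity trend, no block; 4 residual and 5.56 prior degrees of freedom) and Benjamini-Hochberg adjustment over all of them. The procedure was also run on data simulated with independent normal noise, where 14 of 152 calls were false. It called 100% of the larger changes put in and 44.7% of the smaller ones, so a gene not called may still have changed. The members, types and other lists were chosen with earlier results of these data known, so lists are described by counts and medians without a test. Per-library values are given for genes called, for the 4 smallest p of each type and for 13 anchor genes; further members, and genes outside these rules, were named after their values were seen. Alternatives were the pseudocount, the filter, TPM, median-ratio and quantile scaling, a replicate block and leaving out each library. Sequences were not used here.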

Additional observations from a re-analysis of the deposited data

How the results depend on the processing

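The number of genes called was 26 with no filter on low values, and 168 to 1130 when a library was left out. The number of pigment cell genes called, 3 in the full fit, was 0 with no filter, 5 at a mean of at least 5 FPKM (with dct and tyrp1a added), 1 on the TPM scale (slc45a2), and 0 to 4 when a library was left out. It was 0 without DMSO replicate 2 and without each 6PPD library. The median of the melanophore genes ranged from -0.42 (without DMSO replicate 2) to -0.284 with a library left out, and was -0.26 on the TPM scale. The iridophore median ranged from -0.042 to 0.141 with a library left out, the highest without DMSO replicate 3, where ltk fell under the filter. The xanthophore median was -0.463 to -0.154, nearest to 0 without 6PPD replicate 2. In that fit, and in the one without DMSO replicate 2, csf1ra passed the filter and entered the median.

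The following genes changed sign under an alternative and were called in none of these fits. Under median-ratio scaling the log2 fold change was -0.0319 for mitfa, -0.0446 for alx4a and -0.0638 for pax7a, and under quantile normalization -0.0444, -0.0464 and -0.0664, with -0.00294 for ednrba. On the TPM scale gpnmb was at 0.039. With a library left out, mitfa ranged from -0.0531 to 0.112, pmela from -0.176 to 0.0158, kita from -0.0863 to 0.323, ednrba from -0.0509 to 0.298, gpnmb from -0.0401 to 0.0234, alx4a from -0.0504 to 0.141, pax7a from -0.128 to 0.121, paics from -0.295 to 0.0257, atic from -0.248 to 0.0235 and slc22a7a, at -0.31 in the full fit, from -0.489 to 0.018. The cause was not tested.

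With the replicate number as a block, 455 genes and 2 pigment cell genes were called, gpr143 and slc45a2, and pnp4a had an adjusted p = 0.0559. Deviations of same-numbered libraries correlated at 0.03, 0.18 and -0.03, and those of differently numbered libraries at -0.18 to 0.17. With 3 libraries per group this cannot show whether the numbers mark a shared batch, and the labels do not say. Depth is unknown, and low genes such as kita, ltk, mlpha and xdh have the least certain values.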
